A study of Mus musculus with 12 samples.

Results

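The imprinted Dlk1-Dio3 miRNA cluster was examined in the blood cells of Tff2-KO mice. Members were the rows of the array whose name carried 1 of 50 mouse miRNA numbers assigned to the cluster, without the asterisk that marks the less used strand of a hairpin in older names. The rule gave 63 of the 710 rows of the array. All 63 were matched by name to a RefSeq hairpin, and these 52 hairpins lay on chromosome 12 within 180 kb, between Dlk1 and Dio3. Another 13 rows with an asterisk came from the same hairpins and are given apart.

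The study compared 6 Tff2-KO mice, which lack the gene of trefoil factor 2, with 6 WT mice, and each genotype had 3 males and 3 females. Both were of the 129/SV strain, no treatment is named, and the age of the mice was not given in the sources used here. The Tff2-KO mice had been generated in an earlier study whereas the WT mice were bought from Charles River, so that origin and genotype cannot be told apart. Total RNA with the small RNAs came from the pelleted cells of peripheral blood and was hybridized to 1 array per mouse, with 7 spots for each miRNA. Which arrays shared a biochip was not given in the sources used here. The array measures no mRNA, so that Tff2 itself was not checked.

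The Dlk1-Dio3 domain is one of the imprinted regions of the mouse genome, in which only the copy from one parent is active. The protein-coding genes Dlk1, Rtl1 and Dio3 are read from the paternal chromosome, and the noncoding RNAs Meg3, Rian and Mirg and the miRNAs from the maternal one. The miRNAs are best known from embryo, placenta and brain, where a long maternal transcript is thought to carry many of the hairpins, and they are also known from fetal blood stem cells. Some of them lie antisense to Rtl1 and direct the cleavage of its mRNA.

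Mature sequences are shown for the members on which the comparisons below turn. These are the members at an unadjusted p under 0.05 between genotypes, miR-329, which the study took on to target prediction, and miR-667. The sequences are those of RefSeq in the GRCm38.p6 build, with the seed (bases 2 to 8, which pair with a target mRNA) in capitals. The row names miR-329, miR-300, miR-431 and miR-667 give no arm, as for 41 of the 63 members, so both arms of these hairpins are printed. All lie on the plus strand. The miR-337 hairpin gives its 5p arm at chr12:109585818-109585839 and its 3p arm at chr12:109585850-109585871, and miR-431 its arms at chr12:109590459-109590479 and chr12:109590502-109590523. Further on are miR-329 (5p arm chr12:109713503-109713524, 3p arm chr12:109713541-109713562) and miR-666 (5p arm chr12:109717103-109717124, 3p arm chr12:109717140-109717161). They are followed by miR-667 (5p arm chr12:109720020-109720044, 3p arm chr12:109720061-109720083) and miR-300 (5p arm chr12:109724318-109724339, 3p arm chr12:109724363-109724384).
miR-337-5p: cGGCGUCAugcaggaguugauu
miR-337-3p: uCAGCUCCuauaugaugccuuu
miR-431-5p: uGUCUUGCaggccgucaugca
miR-431-3p: cAGGUCGUcuugcagggcuucu
miR-329-5p: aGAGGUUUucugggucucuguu
miR-329-3p: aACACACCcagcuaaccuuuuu
miR-666-5p: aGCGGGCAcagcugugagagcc
miR-666-3p: gGCUGCAGcgugaucgccugcu
miR-667-5p: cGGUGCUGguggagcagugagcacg
miR-667-3p: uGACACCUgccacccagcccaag
miR-300-5p: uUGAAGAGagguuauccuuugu
miR-300-3p: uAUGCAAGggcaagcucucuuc

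These 12 sequences have 12 different seeds. Over the 52 hairpins the table holds 98 mature sequences with 91 different seeds, and only 7 seeds occur in more than 1 hairpin. Of the sequences shown, only the seed of miR-329-3p is also that of a miRNA elsewhere in the table, miR-362-3p of the X chromosome (chrX:7241984-7242005, minus strand).
miR-362-3p: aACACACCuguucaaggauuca
Normalized intensities of miR-362-3p lay between 52.0 and 138 in Tff2-KO mice (median 115), against 65.0 to 152 in WT mice (median 101), with a log2 fold change of -0.01 (standard error 0.30). Its values overlapped throughout.

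Most members of the cluster gave a weak signal in blood cells. The deposited raw values are intensities after background subtraction, so that the size of the lowest, negative value of an array serves here as its limit. This limit lay between 32 and 88 on the Tff2-KO arrays (median 46), against 40 to 76 on the WT arrays (median 42). The raw intensities of the members reached from -40 to 740. Only 9 of the 63 members (14.3%) were above the limit on all 12 arrays, against 300 of the 710 rows (42.3%). These were miR-337-5p, miR-337-3p, miR-666-5p, miR-666-3p, miR-431, miR-433, miR-667, miR-770-3p and miR-377. In contrast, miR-409-3p, miR-541 and miR-1193 were at or under the limit on every array, and 51 members were above it on some arrays only.

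Of the members, 36.5% to 76.2% (median 61.1%) were above the limit on a Tff2-KO array, and 44.4% to 85.7% (median 74.6%) on a WT array. The mean share of members was 60.6% ± 14.03 for Tff2-KO, against 70.4% ± 14.3 for WT (SD, n = 6 each). The lowest shares came from Tff2-KO mouse 2, with 23 members and a limit of 88, and from WT mouse 1, with 28 members and a limit of 76, which were the arrays with the highest limits. The same shares over all 710 rows were 71.8% ± 7.77 for Tff2-KO, against 77.0% ± 9.90 for WT (SD, n = 6 each). The genotypes overlapped in both measures. In bulk blood, fewer cells of a type and less RNA per cell cannot be told apart.

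**Figure D1:**
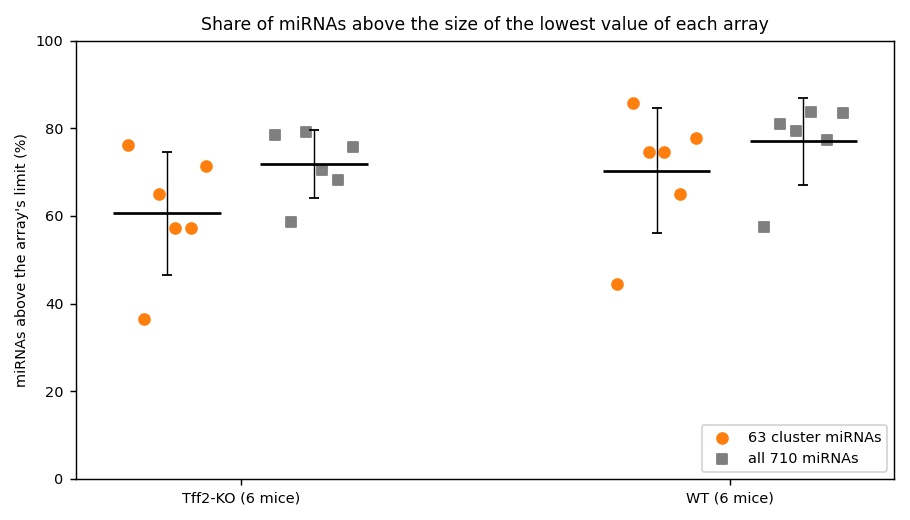
Share of miRNAs with a raw intensity above the limit of the array (y axis, percent) in the 6 Tff2-KO and the 6 WT mice (x axis), for the 63 members of the cluster (circles) and all 710 miRNAs (squares). Points are mice, bars are the mean and SD; the members averaged 60.6% in Tff2-KO and 70.4% in WT mice, and the genotypes overlap.

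The arrays carried the miRNAs of blood. The red cell miRNAs miR-486 and miR-16 had raw intensities of 18152 to 62387 and of 13699 to 46851. miR-451, miR-144, miR-223 of myeloid cells and platelets, miR-126-3p of platelets and miR-150 of lymphocytes were above the limit on all 12 arrays. miR-181a of lymphocytes was above it on 11 arrays. miR-142-3p, which is also a blood cell miRNA, was above it on 1 array and miR-155 on 5. Among miRNAs of other tissues, the brain miRNA miR-124 was at 80 to 240 on all 12 arrays, and miR-9 was above the limit on 0 arrays. The liver miRNA miR-122 ranged from 52 to 7646. Epithelial miR-200c, at 580 to 2841, and muscle miR-133a, at 100 to 780, were above the limit on all 12 arrays. Epithelial miR-141 was so on 10 and miR-205 on 9, muscle miR-208a on 9, miR-1 on 5 and miR-206 on 2. Endocrine miR-7a was above it on 5 arrays and miR-375 on 3. None of these passed an adjusted p under 0.05 in limma between the genotypes. Their part in the values of the cluster was not tested.

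By position, RefSeq places 2 member rows of 1 hairpin inside Meg3, 14 rows of 10 hairpins inside the span of Rtl1, 3 rows inside Rian and 11 rows of 9 hairpins inside Mirg. The members were also divided by textbook groups into the antisense Rtl1 group (6 rows, from miR-431 to miR-136), the miR-379 to miR-410 group (43 rows) and the remaining 14. This antisense group is smaller than the span of Rtl1, which also holds rows counted as remaining, among them miR-337-5p and miR-673-3p. Above the limit on all arrays were 2 of the antisense Rtl1 group, 4 of the miR-379 to miR-410 group and 3 of the remaining members. The heatmap of the members by mouse follows this order along the chromosome. Its dark cells, at or close to the floor of 1, recur in the same few rows, such as miR-541, miR-154 and miR-409-3p, and are found in mice of both genotypes.

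**Figure D2:**
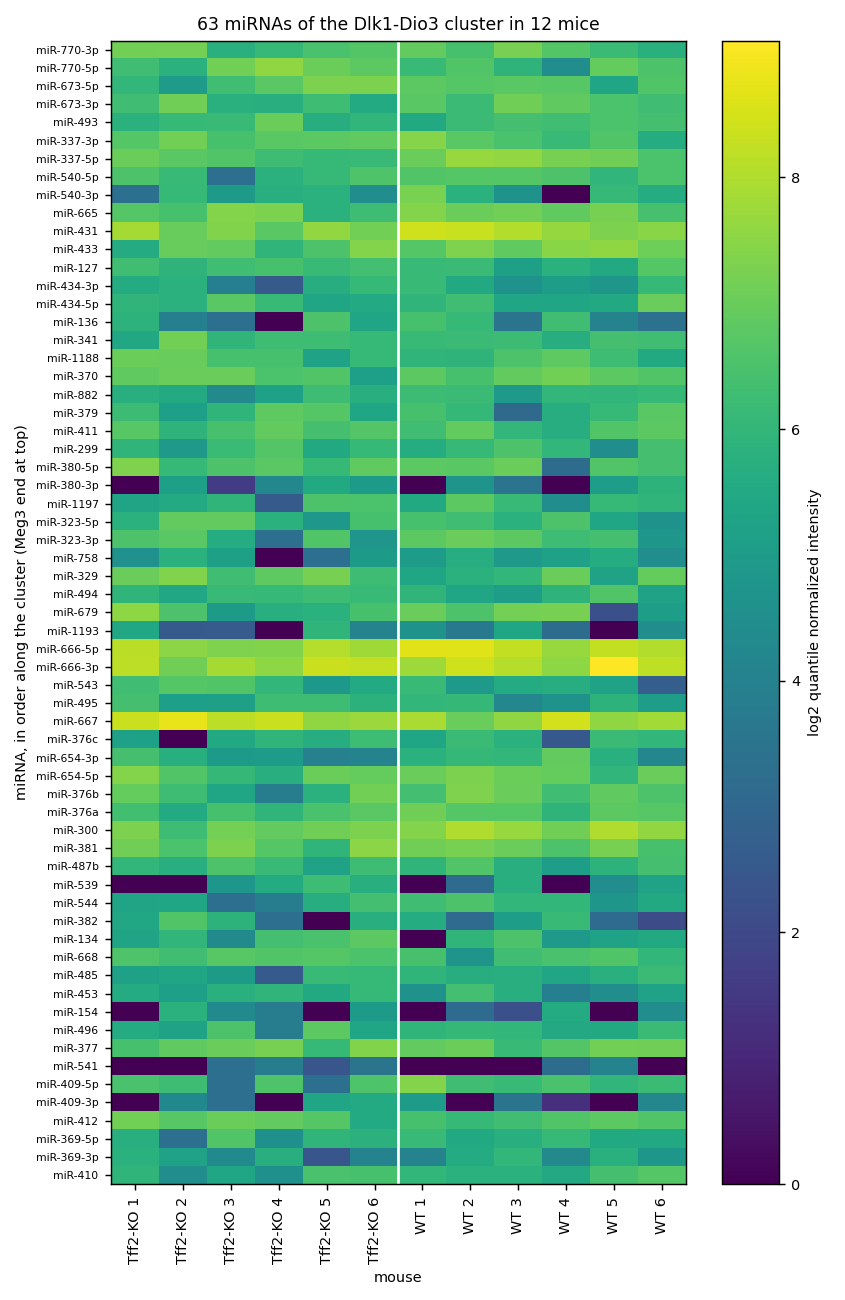
Log2 of the quantile normalized intensity (colour) of the 63 members (rows, in order along the cluster) in the 6 Tff2-KO mice (left) and the 6 WT mice (right of the white line). No row divides the genotypes, and 0 members had values without overlap.

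The first question was whether the miRNAs of the cluster differed between Tff2-KO and WT mice. With limma over all 710 rows and Benjamini-Hochberg adjustment, 0 of the 63 members passed an adjusted p under 0.05, as did 0% of all rows. The smallest adjusted p among the members was 0.387. At an unadjusted p under 0.05, 4 members (6.35%) were lower in Tff2-KO mice, where 5.63% of all rows were lower, and 0 members were higher, where 3.8% of all rows were higher. Over all rows tested, the share of lower members was thus close to that of the array. Among the 355 brighter rows of the array, picked by their mean over all mice, 5 of the 15 members tested were lower (33.3%), where 9.86% of these rows were lower. These were the same 4 members and miR-433, whose unadjusted p in limma was 0.0490 there and 0.0746 over all rows. Testing each row on its own spread, with equal or with unequal variances, gave 4 members (6.35%) at an unadjusted and 0 at an adjusted p each time. Of all rows, 9.86% with equal and 8.45% with unequal variances were called at the unadjusted p. In males only, 9 members were called (14.3%), 4 higher and 5 lower, where 15.9% of all rows were called. The count was 1 with median scaling (1.59%, against 11.7% of all rows). It was 2 (3.17%) without Tff2-KO mouse 4 or WT mouse 1, where 6.06% and 7.32% of all rows were called, and 8 (12.7%) without Tff2-KO mouse 6, where 10.8% were. Also, 1 member (1.59%) was higher with cyclic loess, normexp, the pseudocount of 16 or a robust trend, where 3.8% to 4.79% of all rows were higher. The same count was found without Tff2-KO mouse 3 or 5 or WT mouse 2, 4 or 6, where 2.54% to 6.06% were. It was 2 (3.17%) without Tff2-KO mouse 6, where 4.37% were, and 2 in females only, where 1.97% were. The normalized intensities of the genotypes were without overlap for 0 members, against 1.13% of all rows.

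The median log2 fold change (Tff2-KO over WT) was -0.05 over the members and 0.01 over all rows, with 30 members above 0 and 33 below it. No fold is given for members at or under the limit on 4 or more of the 6 arrays of a genotype. These were 18 members (28.6%), against 24.9% of all rows. For 7 of the 18 members this held in both genotypes, for 8 in Tff2-KO mice only and for 3 in WT mice only. Their raw intensities lay between -40 and 172 with a median of 32. The 45 members with a fold had log2 fold changes from -0.99 to 1.19 with a median standard error of 0.31. Of these 45, the 41 that did not reach an unadjusted p under 0.05 covered the whole of this range.

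miR-337-5p had the smallest p of the members. Its normalized intensity was 67.3 at the lowest, 88.0 at the median and 132 at the highest in Tff2-KO mice, against 91.0, 143.5 and 204 in WT mice. All 6 Tff2-KO mice were below the WT median, although the 3 Tff2-KO males were above the lowest WT mouse, a female. Geometric means were 90.04 for Tff2-KO against 146 for WT. The log2 fold change was -0.69 (standard error 0.25) with an unadjusted p of 0.0152 and an adjusted p of 0.387 in limma. The unadjusted p stayed under 0.05 in each of the 23 alternative settings, between 0.0041 and 0.0392. The adjusted p did not pass in any of them and ranged from 0.161 to 0.672.

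miR-300, a member of the miR-379 to miR-410 group, had normalized intensities of 76.7 at the lowest, 143 at the median and 157 at the highest in Tff2-KO mice, against 137, 200.2 and 259.5 in WT mice. Again, all 6 Tff2-KO mice were below the WT median and the groups overlapped. Geometric means were 129 for Tff2-KO against 199 for WT, with a log2 fold change of -0.63 (standard error 0.23) and an adjusted p of 0.420 in limma.

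The normalized intensity of miR-666-5p lay between 159 and 285 in Tff2-KO mice (median 203), against 208 to 405 in WT mice (median 304.5). Every Tff2-KO mouse was below the WT median. The log2 fold change was -0.55 (standard error 0.23) with an adjusted p of 0.507 in limma. The unadjusted p was 0.0312, and it was no longer under 0.05 without normalization between arrays, with median or 75th percentile scaling, or without Tff2-KO mouse 2, 3 or 4 or WT mouse 1 or 2, with values from 0.0601 to 0.194.

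miR-431 and miR-433 lie side by side antisense to Rtl1. Normalized intensities of miR-431 lay between 108 and 231 in Tff2-KO mice (median 153), against 157 to 346 in WT mice (median 231), with a log2 fold change of -0.59 (standard error 0.26) and an adjusted p of 0.507 in limma. Its unadjusted p of 0.0446 was not kept in 10 of the 23 alternative settings and was 0.100 at the highest, without WT mouse 1. The normalized intensity of miR-433 lay between 48.0 and 169 in Tff2-KO mice (median 107), against 102 to 192 in WT mice (median 147), with a log2 fold change of -0.61 (standard error 0.31) and an adjusted p of 0.531 in limma. The values of both overlapped between the genotypes. The other 2 members of this group with a fold were miR-127 and miR-434-5p, with log2 fold changes of 0.33 and 0.02.

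miR-673-3p was the last of the 6 members with the smallest p in this direction. Its normalized intensity lay between 47.2 and 138 in Tff2-KO mice (median 65.8), against 73.7 to 137 in WT mice (median 99.7), with a log2 fold change of -0.51 (standard error 0.28) and an adjusted p of 0.532 in limma. The highest Tff2-KO mouse was level with the highest WT mouse.

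**Figure D3:**
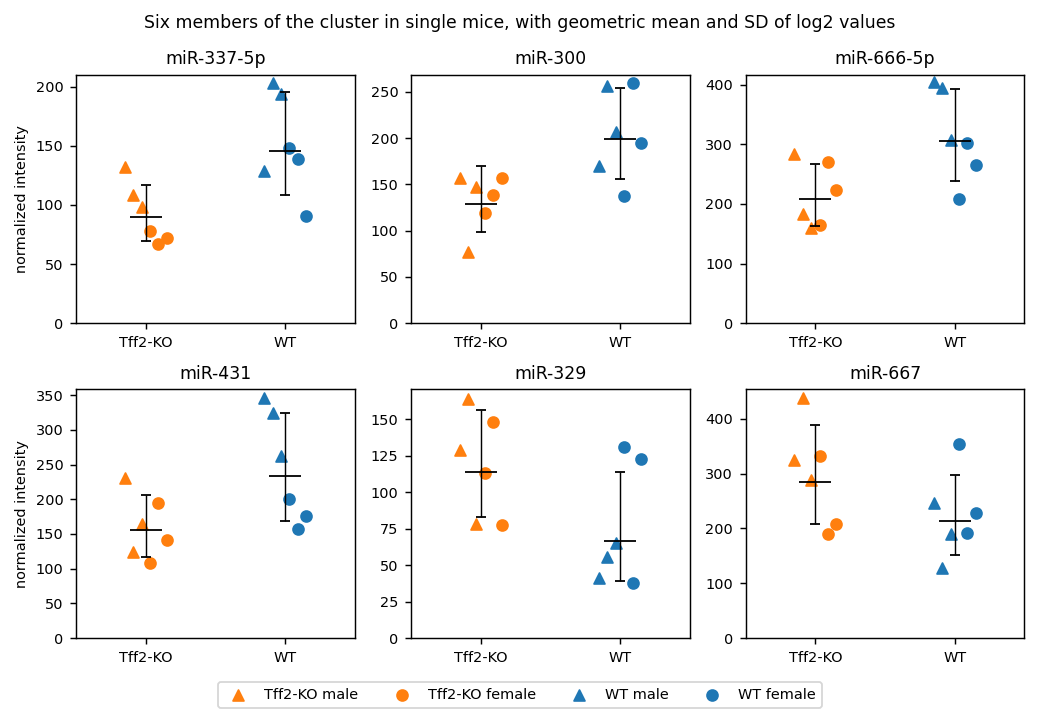
Quantile normalized intensity (y axis, from 0) of 6 members in single Tff2-KO mice (left in each panel) and WT mice (right), males as triangles and females as circles, with the geometric mean and the SD of the log2 values. miR-337-5p, miR-300, miR-666-5p and miR-431 had lower means in Tff2-KO mice and miR-329 and miR-667 higher ones, and the genotypes overlap in every panel.

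In the other direction no member reached an unadjusted p under 0.05. miR-329, which is needed for the outgrowth of dendrites in rat neurons, had normalized intensities of 77.7 at the lowest, 121 at the median and 164 at the highest in Tff2-KO mice, against 37.7, 60.2 and 131 in WT mice. All 6 Tff2-KO mice were above the WT median, but the WT females 4 and 6, at 131 and 122, were each above at least 3 of the Tff2-KO mice. The log2 fold change was 0.77 (standard error 0.35) with an unadjusted p of 0.0519 and an adjusted p of 0.507 in limma. It was 0.96 without WT mouse 4, and its lowest value was 0.38 over the 22 alternative settings that kept this row. The unadjusted p of limma was under 0.05 in 8 of these settings and ranged from 0.0155 to 0.216, and the adjusted p passed in 0. In males alone the estimate was 1.16 and in females alone 0.37, with an unadjusted p of 0.290 for that difference in limma.

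Normalized intensities of miR-667 lay between 189 and 438 in Tff2-KO mice (median 306), against 128 to 354 in WT mice (median 209.9), with a log2 fold change of 0.42 (standard error 0.28) and an adjusted p of 0.591 in limma. It was 0.28 without WT mouse 2. The estimate was 0.92 in males and -0.08 in females, and the unadjusted p of this difference between the sexes was 0.0743 in limma. Tff2-KO mouse 2, a male, was the highest in both miR-329 and miR-667, and over the 12 mice the log2 intensities of the pair had a Pearson r of 0.59, or 0.46 within genotypes.

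The normalized intensity of miR-668 lay between 79.3 and 105 in Tff2-KO mice (median 97.5), against 26.3 to 97.7 in WT mice (median 82.7), with a log2 fold change of 0.48 (standard error 0.29) and an adjusted p of 0.590 in limma. It depended on WT mouse 2, the lowest, and was 0.21 without it. Normalized intensities of miR-453 lay between 34.7 and 67.8 in Tff2-KO mice (median 50.9), against 15.3 to 82.7 in WT mice (median 31.1), with a log2 fold change of 0.61 (standard error 0.38), or 0.39 without WT mouse 4. That of miR-770-5p, which is encoded within Meg3, lay between 55.8 and 192 in Tff2-KO mice (median 123), against 22.0 to 124 in WT mice (median 81.8), with a log2 fold change of 0.68 (standard error 0.43), or 0.36 without WT mouse 4. All 3 overlapped between the genotypes, and miR-453 was above the limit on 4 Tff2-KO and 3 WT arrays only. miR-543 was also among the 6 members with the smallest p in this direction and gets no fold, since it was above the limit on 4 Tff2-KO and 2 WT arrays. Its raw intensities were 20 to 124 (median 70) in Tff2-KO mice and 12 to 64 (median 46) in WT mice.

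Among the 6 members with the highest mean log2 intensity were also miR-666-3p and miR-381. The normalized intensity of miR-666-3p lay between 138 and 331 in Tff2-KO mice (median 263), against 184.5 to 543 in WT mice (median 285), with a log2 fold change of -0.30 (standard error 0.30), or -0.12 without WT mouse 5. That of miR-381, which acts with miR-329 in dendrite outgrowth of rat neurons, lay between 61.3 and 181 in Tff2-KO mice (median 122), against 86.8 to 150.2 in WT mice (median 133), with a log2 fold change of -0.08 (standard error 0.28). Neither difference exceeded its standard error.

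Along the chromosome the 3 groups had no common direction. In the antisense Rtl1 group 1 of 6 members was lower at an unadjusted p under 0.05 and the median log2 fold change was -0.51, which was -0.28 over the 4 with a fold. In the miR-379 to miR-410 group 2 of 43 were lower with a median of 0.02, and in the remaining members 1 of 14 with a median of -0.08. In each of the groups 0 members were higher. Over all rows 5.63% were lower and 3.8% were higher.

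**Figure D4:**
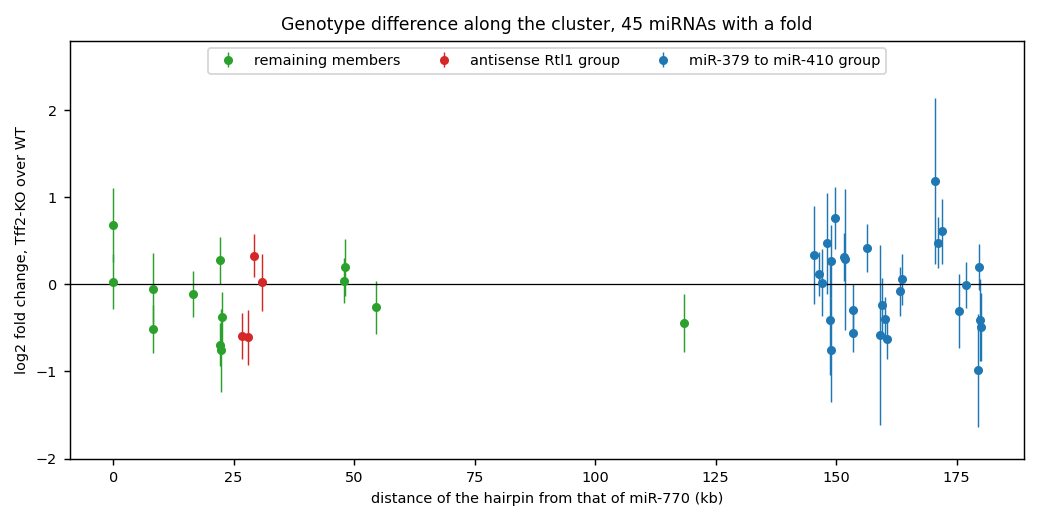
Log2 fold change (y axis, Tff2-KO over WT) with its standard error for the 45 members with a fold, against the distance of the hairpin from that of miR-770 (x axis, kb). Points of the antisense Rtl1 group, the miR-379 to miR-410 group and the remaining members lie on both sides of 0, between -0.99 and 1.19.

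The 2 strands of a hairpin are made from 1 precursor, and 24 hairpins had rows for both, counting the rows with an asterisk. A fold was given for both rows in 8 of these hairpins, and the pair had the same sign in 5. In the miR-666 hairpin the log2 fold changes were -0.55 for miR-666-5p and -0.30 for miR-666-3p, and in the miR-431 hairpin -0.59 for miR-431 and -0.67 for miR-431*. The opposite was seen in the miR-337 hairpin, where miR-337-5p was at -0.69 and miR-337-3p at 0.28 although both rows were above the limit on all 12 arrays. Signs also differed in the miR-323 hairpin (0.27 for miR-323-5p and -0.75 for miR-323-3p) and in the miR-127 hairpin (0.33 for miR-127 and -0.44 for miR-127*). Over the 12 mice, log2 intensities of the 2 rows had a Pearson r between -0.55 and 0.54 in these 8 hairpins. It was 0.54 in the miR-666 hairpin, 0.24 in the miR-411 hairpin, 0.16 in the miR-323 hairpin, 0.03 in the miR-127 and miR-431 hairpins and -0.04 in the miR-337 hairpin. The lowest values were those of the miR-673 hairpin (-0.40) and the miR-770 hairpin (-0.55), although the log2 fold changes of their rows had the same sign. Of the 13 rows with an asterisk, 0 were at an unadjusted p under 0.05 in limma between genotypes, where 9.44% of all rows were, and 10 get no fold. Between the sexes 2 of the 13 were higher and 1 was lower in males at this threshold, and 3 were called in genotype by sex, where 7.89% and 10% of all rows were called. miR-127* was the only one above the limit on all arrays.

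The 9 members above the limit on all arrays form 36 pairs. After the genotype means were taken off, Pearson correlations of their log2 intensities over the 12 mice ran from -0.75 to 0.75 with a median of 0.01, and 18 pairs were below 0. Among the 300 rows above the limit on all arrays the median was 0.00. The highest value was that of miR-666-5p with miR-431, at 0.75, and 4 pairs were above 0.5. At the other end were miR-667 with miR-666-3p, at -0.75, and with miR-666-5p, at -0.58. miR-377 was at -0.53 with miR-770-3p and at -0.51 with miR-431. All values of a mouse come from the same array and share its normalization.

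The mice also allow males to be compared with females. At an unadjusted p under 0.05 in limma with genotype as a covariate, 4 members (6.35%) were higher in males, where 5.07% of all rows were higher, and 1 member (1.59%) was lower in males, where 2.82% of all rows were lower. Again 0 members passed the adjusted p, of which the smallest was 0.512. The count of 5 was 11 without WT mouse 4 (17.5%, against 11.4% of all rows). It was 3 without Tff2-KO mouse 1, Tff2-KO mouse 2, WT mouse 1 or WT mouse 6 (4.76%, against 5.21% to 8.03% of all rows).

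Normalized intensities of miR-337-5p lay between 98.3 and 204 in males (median 130.5), against 67.3 to 148 in females (median 84.3), with a log2 difference of 0.56 (male minus female, standard error 0.19) and an adjusted p of 0.512 in limma. In Tff2-KO mice the geometric means were 112 in males and 72.3 in females, and in WT mice 172 in males and 123 in females. miR-431 had a log2 difference of 0.51 (standard error 0.23). The normalized intensity of miR-323-3p lay between 49.7 and 128 in males (median 110.2), against 10.0 to 98.3 in females (median 52.9), with a log2 difference of 1.23 (standard error 0.50) and an unadjusted p of 0.0326 in limma. Without WT mouse 6 it was 1.03 with an unadjusted p of 0.0757 in limma. Without Tff2-KO mouse 4, a female with a raw intensity of 0, it was 0.86 with an unadjusted p of 0.0656 in limma. The unadjusted p was not under 0.05 in 9 of the 20 alternative settings. These 3 miRNAs overlapped between the sexes. The other 2 were miR-543 and, in the other direction, miR-541, which had raw intensities of -40 to 8 in males and -40 to 16 in females and was above the limit on no array.

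Last, the genotype difference was compared between the sexes. The interaction term of limma was at an unadjusted p under 0.05 for 1 member (1.59%), where it was so for 10% of all rows, and for 0 members at an adjusted p under 0.05. This member was miR-673-5p, which had normalized intensities of 65.3, 31.3 and 78.3 in Tff2-KO males against 112, 102 and 108 in WT males, and of 108, 159 and 157 in Tff2-KO females against 105, 41.2 and 98.3 in WT females. The sexes thus ran in opposite directions, with log2 fold changes (Tff2-KO over WT) of -0.98 in males and 0.89 in females. The difference, males minus females, was -1.87 (standard error 0.61) with an adjusted p of 0.450 in limma, and it was -1.44 without WT female 5, the lowest of the WT mice.

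For miR-412 the geometric means were 126 in Tff2-KO males against 77.7 in WT males, and 83.2 in Tff2-KO females against 103 in WT females. The difference of the log2 fold changes, males minus females, was 1.01 (standard error 0.47), and 0.60 without Tff2-KO female 6. For miR-453 they were 44.7 in Tff2-KO males against 47.5 in WT males, and 57.5 in Tff2-KO females against 23.3 in WT females, with a difference of -1.39 (standard error 0.66). The adjusted p was 0.509 for both in limma. Over all members the sign of the genotype difference was the same in both sexes for 41 of 63, and over all rows for 366 of 710.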

How the data were processed

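RNA was measured on Geniom Biochips (miRBase 14 names), read with Geniom software. Per the study's methods the authors extracted median signal intensities, corrected them for background and summarized the 7 spots of a miRNA by their median. The deposited raw table holds these linear intensities without normalization between arrays, and a second deposited table holds intensities after the authors' quantile normalization, used as an alternative. A t-test, which the study names without its form, was run with equal and with unequal variances as an alternative. Quantile normalization was done here on the raw table of all 12 arrays in limma 3.58.1 (R 4.3.3), followed by a floor of 1 and log2. Values below 1 made up 4.63% of the members' raw values and 4.81% of all raw values. All 710 rows were fitted with lmFit and eBayes and adjusted by Benjamini-Hochberg. Standard errors are those of limma. The number of arrays limits the precision.

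Members and lists were chosen with earlier results of these data known. Named are miR-329, the 6 members with the smallest p in each direction, the 6 with the highest mean log2 intensity, the 3 with the smallest p for sex and the 3 for genotype by sex. Also named would be any member without overlap, of which there were 0. Others named are those of complete small sets, chosen after their values were seen. Replicate numbers did not mark the same animal. Alternatives were other scalings, normexp with an offset of 50, a pseudocount of 16, brighter rows only, a robust trend, sex as covariate, a replicate block, single sexes and leaving out each mouse. Sequences and gene spans are RefSeq's (GRCm38.p6). Figures were drawn with matplotlib 3.10.9. Target predictions and qRT-PCR were not analysed here.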

Additional observations from a re-analysis of the deposited data

Results flagged for a closer look

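In 5 groups of 6 mice, 1 mouse lay far from the others in a named member by Dixon's test on log2 values. Tested were 42 groups, 36 of the 18 named members and 6 of measures of the arrays, and chance gives about 1 in 20, or 2.1. All 5 were low values, which the log2 scale sets further apart, and on the linear scale, tried after the values were seen, only 1 of the 5, miR-673-5p, passed. Among Tff2-KO mice, miR-412 was at 47.17 in female 6, where the others were between 102.5 and 143.2. Among WT mice, miR-543 was at 6.667 in female 6 (others 29.5 to 69.33) and miR-323-3p at 28.33 in the same mouse (others 77.5 to 128). miR-668 was at 26.33 in WT male 2 (others 64.33 to 97.67), and miR-673-5p was at 41.17 in WT female 5 (others 98.33 to 112.3). All values given are normalized intensities.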

How the results depend on the processing

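The count of 0 members at an adjusted p under 0.05 between genotypes was the same in every alternative, with a smallest adjusted p between 0.161 and 0.649. The 4 members at an unadjusted p under 0.05 between genotypes were 1 with median scaling (1.59%, against 11.7% of all rows) and 9 in males only (14.3%, against 15.9%), 4 higher and 5 lower. The replicate numbers did not pair the mice (correlations of same-numbered mice from -0.17 to 0.11), and with the replicate block the count was 2 (3.17%, against 7.04% of all rows). With a mouse left out it was between 2 (without Tff2-KO mouse 4 or WT mouse 1) and 8 (without Tff2-KO mouse 6), where 6.06% to 13.4% of all rows were called. The 5 members of the sex comparison were 2 among the brighter rows, where 15 members were tested (13.3%, against 7.89% of these rows). They were 3 with a robust trend (4.76%, against 7.75% of all rows). With a mouse left out they were between 3 and 11, where 5.21% to 11.4% of all rows were called. The 1 member of genotype by sex, miR-673-5p with a difference below 0, was not among the 5 called without normalization between arrays, which were all above 0 (7.94%, against 13.4% of all rows). It was 1 of 3 with normexp (4.76%, against 11.7% of all rows). miR-673-5p was not among the brighter rows, where 1 of 15 members was called (6.67%, against 13.8% of these rows). That member was miR-412, with a difference above 0 (1.01, unadjusted p of 0.0409 in limma). With a mouse left out the count was between 1 and 5, where 6.62% to 12.5% of all rows were called, 5 being that without Tff2-KO mouse 4 or WT mouse 1. The 18 log2 fold changes, sex differences and interactions of named members were recomputed in 396 alternatives, of which 395 kept the direction and 0 passed the adjusted p, but the side of an unadjusted p of 0.05 changed in 52. The log2 fold change of miR-381 was between -0.21 and 0.10 with a mouse left out, 0.10 being that without Tff2-KO mouse 5. The cause of these shifts was not tested.

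The median log2 fold change of -0.05 over the members and 0.01 over all rows depended on the normalization. It was -0.31 and -0.12 with the 75th percentile, -0.13 and 0.06 with median scaling, and -0.28 and -0.08 without normalization. With cyclic loess it was -0.045 and 0.0078. The rows of the array at an unadjusted p under 0.05 were 27 higher and 40 lower, but 10 and 52 without normalization, 50 and 33 with median scaling, 24 and 63 with the 75th percentile, and 31 and 31 with cyclic loess. Among the brighter rows 5 of the 15 members were lower (33.3%), where 9.86% of these rows were lower. The weak signal of most members limits what can be seen of them.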
